A study of Arabidopsis thaliana with 4 samples.

Results

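The chloroplast genome of Arabidopsis thaliana was described through its 133 loci, taken as every gene of the deposited tables whose identifier starts with ATCG, out of 33602 genes in all. They comprised 88 protein-coding loci, 8 ribosomal RNA loci and 37 transfer RNA loci. The inverted repeat of the chloroplast genome carries 19 pairs of these loci, so that 114 entries remained once the copies of a pair were summed: 80 protein-coding genes, 4 ribosomal RNAs and 30 transfer RNAs. The trans-spliced gene rps12 is listed as separate parts and counts as 2 of the 80. RNA came from whole seedlings of 12 days. One genotype was Col-0, the reference accession (WT), and the other overexpressed sORF1511, a small open reading frame. The overexpressor was a single line, 7 in the design text, so that the line and its transgene cannot be told apart. The promoter that drives the transgene is not given in the sources used here, and RNA of the transgene was not analysed here. Each genotype had 2 libraries, which the labels call biological replicates, and each library was a pool of 5 seedlings made from 200 ng of RNA by a stranded protocol with poly(A) enrichment. The series addresses peptides of small open reading frames in the phloem and the timing of flowering.

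The chloroplast genome encodes core subunits of the photosynthetic complexes, the large subunit of Rubisco, and parts of the machinery that expresses these genes: ribosomal RNAs, transfer RNAs, ribosomal proteins and the subunits of a bacterial-type RNA polymerase. That polymerase works with sigma factors and associated proteins encoded in the nucleus, and a phage-type polymerase, also of nuclear origin, transcribes the chloroplast genome as well, with the rpoB operon among its known targets. Most chloroplast transcripts are made as long multi-gene precursors and then cut. A poly(A) tail is added to chloroplast RNA mainly on its way to degradation, so a poly(A)-enriched library holds a small and selected sample of it.

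WT replicate 1 stood apart from the other 3 libraries. Its chloroplast loci held 4300770 of 13974460 reads, which is 30.8%. In WT replicate 2 the same loci held 1.42% of 24508631 reads, and in the overexpressor 1.13% of 18547136 in replicate 1 and 0.995% of 25740234 in replicate 2. Protein-coding chloroplast genes alone took 2.72% of the reads of WT replicate 1, against 0.122%, 0.0478% and 0.0385% in the other libraries in that order. Both overexpressor libraries therefore lay below both WT libraries, and the distance between the WT replicates was far larger than the distance from WT replicate 2 to the overexpressor. The 146 mitochondrial loci were ordered in the same way, with 0.947%, 0.0506%, 0.0277% and 0.0236% of the reads. A list of 10 root genes summed to 85.1 and 94.99 CPM of the nuclear reads in WT and to 52.0 and 54.8 in the overexpressor, and a list of 10 nuclear photosynthesis genes to 63124 and 62501 in WT and to 70364 and 67272 in the overexpressor. The part of these differences in the chloroplast values was not tested, and in whole seedlings fewer cells of a type and less RNA per cell cannot be told apart.

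**Figure D1:**
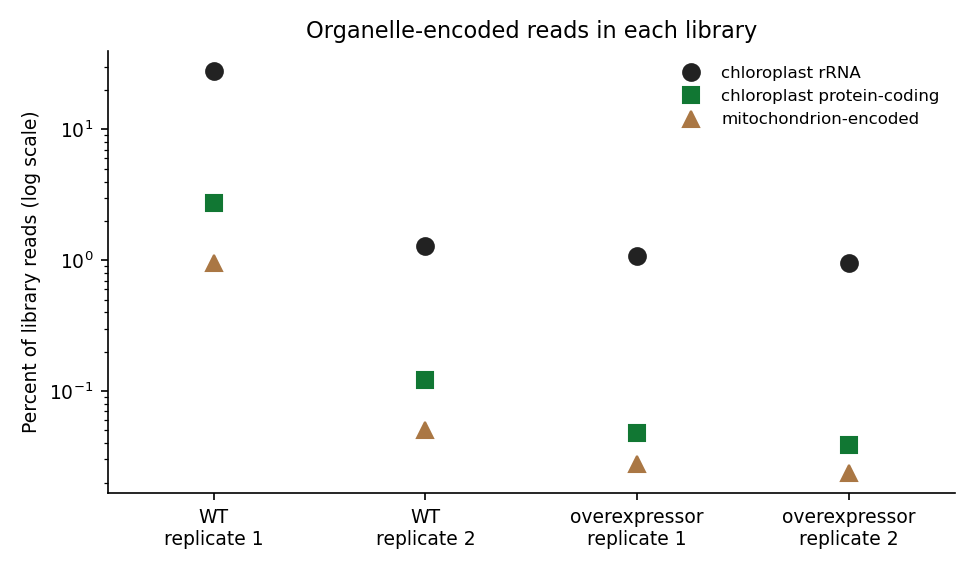
Share of all reads of each library (percent, log axis) taken by chloroplast ribosomal RNA, chloroplast protein-coding and mitochondrial loci, 1 marker per class and library. WT replicate 1 lies above the other 3 libraries in each class, with 2.72% of its reads on chloroplast protein-coding loci against 0.122%, 0.0478% and 0.0385%.

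Reads of the inverted repeat were divided between its copies differently from library to library. For rpl2, a protein of the large ribosomal subunit, the first copy received 97.0% and 100% of its reads in the WT libraries, against 0% and 100% in those of the overexpressor. The gene of ribosomal protein S7, rps7, had 81.5% in its first copy in WT replicate 1 and 0% in each of the other 3 libraries. Values of genes in the inverted repeat are therefore given with their copies summed.

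The 4 ribosomal RNAs were higher in the overexpressor relative to the chloroplast protein-coding genes. Summed, they were not higher as a share of all reads. Chloroplast ribosomal RNA took 28.1% and 1.29% of all reads in WT, against 1.08% and 0.956% in the overexpressor. The overexpressor mean share was 0.787 of that in WT replicate 2 for ribosomal RNA, and 0.354 of it for protein-coding genes. The ratio between the 2 classes thus rose while both shares were lower. The libraries held 10.3 and 10.6 ribosomal RNA reads per chloroplast protein-coding read in WT, against 22.5 and 24.8 in the overexpressor. The means were 10.4 ± 0.202 (SD, n = 2) and 23.7 ± 1.60 (SD, n = 2), a ratio of 2.27. The WT replicates, whose chloroplast shares differed so widely, had nearly the same ratio, and the genotypes did not overlap. With 2 libraries against 2, the smallest two-sided p of an exact permutation test is 0.333, and this ratio gave that value.

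**Figure D2:**
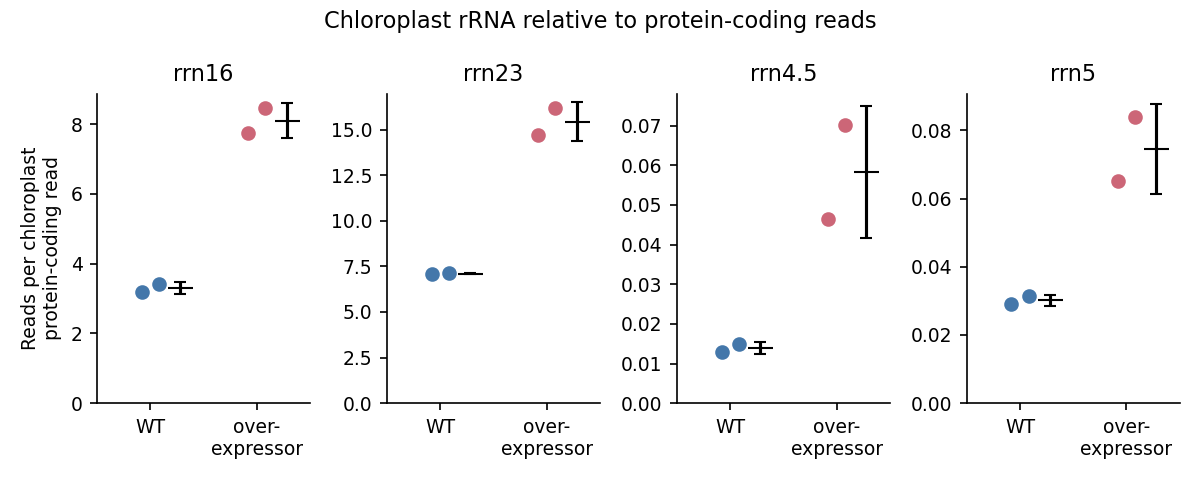
Reads of each ribosomal RNA per chloroplast protein-coding read (linear axes from 0, copies of the inverted repeat summed), with 1 point per library and the mean ± SD of the 2 libraries of a genotype beside them. Both overexpressor libraries lie above both WT libraries in each panel, for rrn16 at 7.75 and 8.46 against 3.18 and 3.42.

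The RNA of the small ribosomal subunit, rrn16, had 3.18 and 3.42 reads per chloroplast protein-coding read in WT and 7.75 and 8.46 in the overexpressor. The main RNA of the large subunit, rrn23, had 7.08 and 7.13 in WT and 14.7 and 16.2 in the overexpressor. The short large-subunit RNA rrn4.5, which is cut from the same precursor, had 0.0129 and 0.0150 in WT and 0.0464 and 0.0701 in the overexpressor. The other short RNA of that subunit, rrn5, had 0.0291 and 0.0313 in WT and 0.0651 and 0.0840 in the overexpressor. In each case both overexpressor libraries exceeded both WT libraries, and the replicates of a genotype lay closer to each other than to the other genotype.

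For the test, copies were summed and chloroplast genes scaled by the chloroplast protein-coding genes. The quasi-likelihood test of edgeR then called 4 of the 61 fitted chloroplast genes higher, against 0.786% of all 19467 genes tested. These were the 4 ribosomal RNAs. They are scaled by the same protein-coding genes, and rrn23 and rrn4.5 share a precursor, so the 4 calls are not independent. The log2 fold change was 1.13 ± 0.09 (SE) for rrn16 (adjusted p = 0.0211), 0.96 ± 0.08 for rrn23 (adjusted p = 0.0194), 1.90 ± 0.20 for rrn4.5 (adjusted p = 0.0325) and 1.14 ± 0.14 for rrn5 (adjusted p = 0.0404). Without WT replicate 1 the same 4 RNAs were called by edgeR, with log2 fold changes of 1.03, 0.89, 1.74 and 1.03 and adjusted p between 0.0216 and 0.0462. Without overexpressor replicate 1, 0 of the 4 were called (edgeR adjusted p from 0.0795 to 0.140), and without overexpressor replicate 2, 0 was called as well (edgeR adjusted p from 0.0895 to 0.188), with log2 fold changes from 0.91 to 2.05 over both fits. In these fits edgeR called 19 and 0 genes of the whole table. Scaled by all chloroplast reads, 0 of the 4 were called: ribosomal RNA made up between 91.2% and 96.1% of those reads, and rrn23 then had a log2 fold change of 0.01.

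With the loci counted singly, 2 of 68 fitted loci passed under this scaling, against 0.781% of the 19474 genes tested. They were a copy of rrn5 and a copy of rrn16 (ATCG01160 and ATCG01210), and no protein-coding locus passed. At an unadjusted p under 0.05, edgeR had 36 of the 68 loci, against 22.2% of all genes. DESeq2 called 9 of the 68, against 5.97% of all genes.

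Set against the mitochondrial loci, both classes of chloroplast RNA separated the genotypes, in opposite directions. Chloroplast protein-coding reads per mitochondrial read were 2.87 and 2.41 in WT and 1.73 and 1.63 in the overexpressor. Chloroplast ribosomal RNA reads per mitochondrial read were 29.6 and 25.6 in WT and 39.0 and 40.5 in the overexpressor. Neither ratio overlapped between genotypes, and the exact two-sided permutation p was 0.333 for each, the smallest possible.

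Among the protein-coding genes, the overexpressor had larger shares of ribosomal protein and ATP synthase genes and a smaller share of photosystem I genes than WT. In photosystem I, psaA and psaB of the same operon held nearly all of the class share, so the class value is theirs. The small shares of psaC and ycf4 were higher and lower, respectively, in both overexpressor libraries. The classes of photosystem II and RNA polymerase also differed, with a single gene holding most of each difference in percentage points. Ribosomal protein genes took 3.17% and 5.01% of the chloroplast protein-coding reads in WT, against 10.3% and 12.1% in the overexpressor. ATP synthase genes took 5.18% and 7.62% in WT and 11.4% and 12.9% in the overexpressor. The RNA polymerase genes took 1.90% and 3.14% in WT and 5.21% and 6.29% in the overexpressor. Photosystem II genes had 44.5% and 34.1% in WT against 29.5% and 28.4%, and photosystem I genes 12.2% and 11.3% against 8.31% and 8.84%. Without psbA, the other photosystem II genes had 12.3% and 13.9% in WT against 14.2% and 14.5% in the overexpressor. These are shares of a total that still includes psbA, so a lower psbA share raises them, and no direction is read from them. Without rpoB, the other RNA polymerase genes had 1.27% and 1.099% in WT against 1.07% and 0.897%, also as shares of the full total. That is the opposite direction to the class taken whole. Ribosomal protein genes without rpl2 still had 2.60% and 3.14% in WT against 4.78% and 5.83% in the overexpressor, and ATP synthase genes without atpB 3.42% and 3.803% against 5.19% and 5.96%. The genotypes did not overlap in any of these 5 classes taken whole, each with an exact two-sided permutation p of 0.333, the smallest possible, and no class share was tested across genes. In all 5 of these classes, WT replicate 2 lay between WT replicate 1 and both overexpressor libraries. For photosystem II genes, WT replicate 2 was further from WT replicate 1 than from either overexpressor library.

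**Figure D3:**
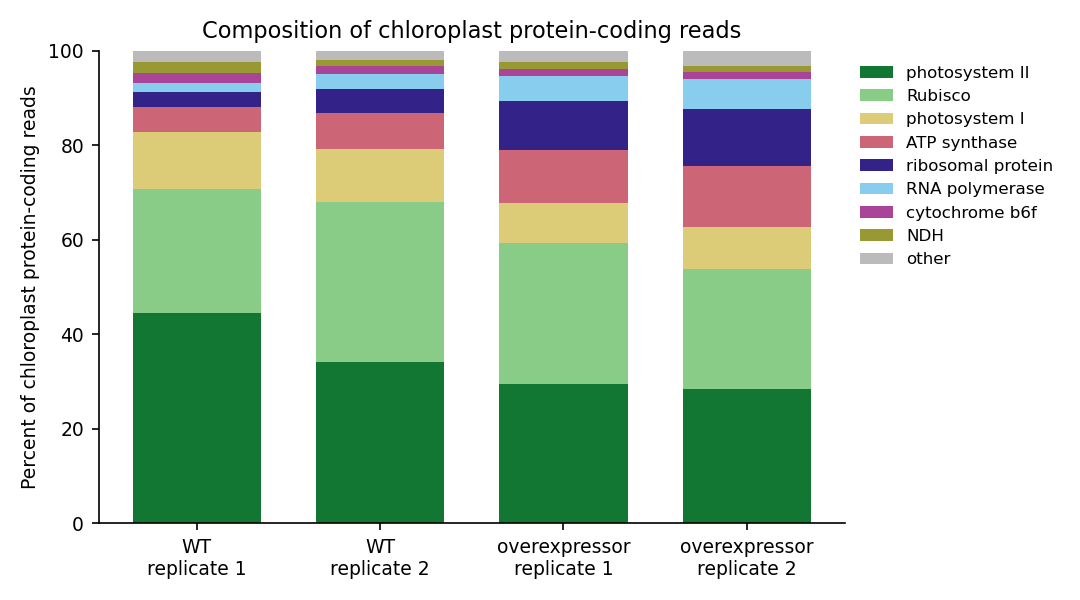
Share of the chloroplast protein-coding reads of each library (percent) taken by each functional class. Ribosomal protein genes stand at 3.17% and 5.01% in WT and at 10.3% and 12.1% in the overexpressor, and photosystem II genes at 44.5% and 34.1% against 29.5% and 28.4%.

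Gene by gene, 47 of the 80 protein-coding genes had a mean share of at least 0.113% of the chloroplast protein-coding reads, which is 10 reads in the smallest set. Of these 47, the overexpressor libraries had a share above both WT libraries for 21 genes, below both for 9, and overlapped with WT for 17. Over all 80 genes, 30% were above and 20% below. For 28 of the 47 genes, the share in WT replicate 2 lay between that of WT replicate 1 and the overexpressor mean. By class, 10 of 12 ribosomal protein genes and 5 of 6 ATP synthase genes were above, and 3 of 4 photosystem I genes were below. These counts include 3 genes whose shares reached the minimum in one genotype only and which therefore had to differ; without them they are 9 of 10, 5 of 6 and 2 of 3. None of these 47 genes passed the edgeR test scaled within the chloroplast set on all 4 libraries (the copies of a gene summed). With the loci counted singly, the genes DESeq2 called included psbA, psaA and psaB, all lower, and clpP1, higher.

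**Figure D4:**
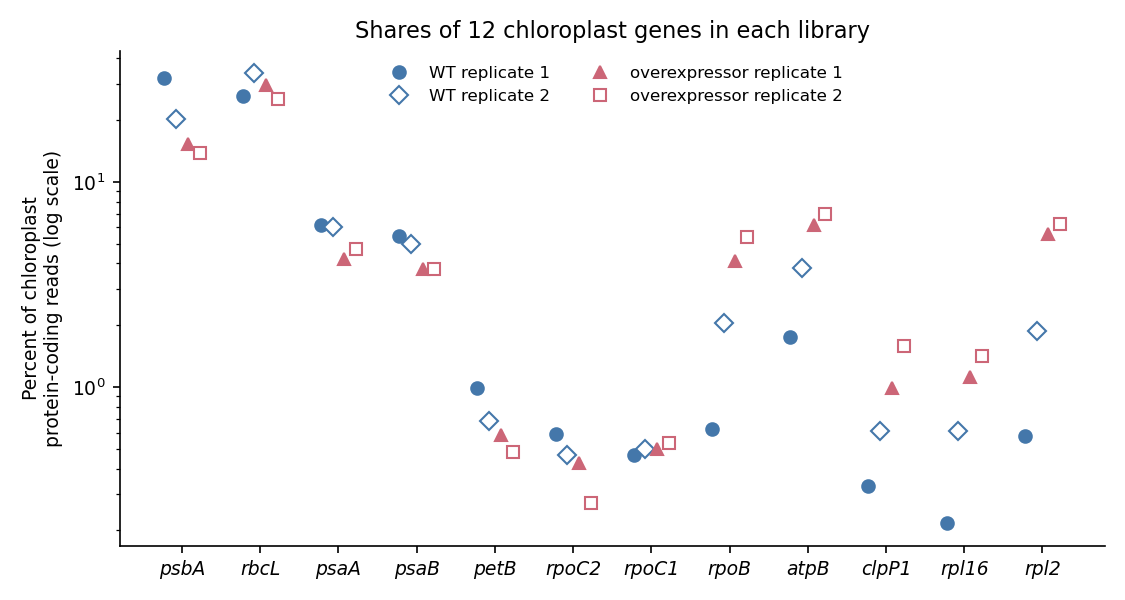
Share of the chloroplast protein-coding reads (percent, log axis) of 12 genes in each library, 1 marker per library. rpoB, rpl2, rpl16, clpP1 and atpB are higher in both overexpressor libraries than in both WT libraries, psbA, psaA, psaB, petB and rpoC2 lower, and rbcL and rpoC1 overlap.

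In photosystem II, psbA, which encodes the D1 reaction-centre protein, took 32.2% and 20.2% of the protein-coding reads in WT, against 15.3% and 13.9% in the overexpressor. Its reads numbered 122314 and 6039 in WT and 1359 and 1379 in the overexpressor. Within the chloroplast scale its log2 fold change was -0.99 ± 0.20 (SE), and it did not pass in edgeR (adjusted p = 0.0897). The other reaction-centre gene, psbD for the D2 protein, had 2.89% and 2.71% in WT and 2.38% and 2.28% in the overexpressor. The antenna gene psbC, which lies next to psbD and shares transcripts with it, had 5.59% and 6.79% in WT and 7.07% and 6.76% in the overexpressor. The genotypes overlapped for psbC and not for psbD. The second antenna gene psbB had 3.13% and 3.63% in WT and 4.08% and 4.87% in the overexpressor, higher in both libraries. The cytochrome b559 gene psbE had 0.388% and 0.511% in WT and 0.451% and 0.403% in the overexpressor, and psbH 0.141% and 0.180% against 0.180% and 0.161%.

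The photosystem I core genes were lower in both overexpressor libraries. psaA, which encodes a subunit of the reaction-centre pair, had 6.18% and 6.05% in WT and 4.19% and 4.72% in the overexpressor. Its partner psaB, from the same operon, had 5.46% and 4.96% in WT and 3.75% in each overexpressor library. The WT replicates were close for both genes, although their chloroplast read totals differed widely. The log2 fold changes within the chloroplast scale were -0.62 ± 0.09 for psaA (edgeR adjusted p = 0.0573) and -0.63 ± 0.09 for psaB (edgeR adjusted p = 0.0544), just outside the threshold of 0.05. The iron-sulphur subunit gene psaC had 0.144% and 0.140% in WT and 0.169% and 0.192% in the overexpressor, the opposite direction. The assembly factor gene ycf4 had 0.241% and 0.127% in WT and 0.0789% and 0.0504% in the overexpressor, from 7 and 5 reads in the latter.

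The cytochrome b6f genes together took 2.12% and 1.68% of the protein-coding reads in the WT libraries and 1.44% and 1.502% in the overexpressor, without overlap, while Rubisco overlapped. The gene of the large Rubisco subunit, rbcL, had 26.3% and 33.8% in WT and 29.8% and 25.5% in the overexpressor, and the genotypes overlapped. Its log2 fold change within the chloroplast scale was -0.28 ± 0.18 (SE, edgeR adjusted p = 0.405). The cytochrome b6 gene petB had 0.991% and 0.682% in WT and 0.586% and 0.484% in the overexpressor, with a log2 fold change of -0.82 ± 0.21 (edgeR adjusted p = 0.124). The cytochrome f gene petA and the subunit IV gene petD overlapped between genotypes, petA with 0.509% and 0.571% in WT and 0.552% and 0.484% in the overexpressor.

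Within the ATP synthase, the beta subunit gene atpB had 1.75% and 3.82% in WT and 6.18% and 6.95% in the overexpressor. The epsilon subunit gene atpE, which is co-transcribed with atpB, had 0.302% and 0.698% in WT and 0.992% and 1.37% in the overexpressor. Both therefore had the same order of the 4 libraries, with WT replicate 1 lowest. The alpha subunit gene atpA, from another operon, ran from 1.92% and 2.06% in WT to 2.92% and 2.89% in the overexpressor. Of that second operon, atpF and atpH were also above both WT libraries, and atpI overlapped, with 0.405% and 0.257% in WT and 0.282% and 0.292% in the overexpressor. The log2 fold change within the chloroplast scale was 1.08 ± 0.39 for atpB (edgeR adjusted p = 0.193) and 0.39 ± 0.11 for atpA (edgeR adjusted p = 0.148).

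The 4 genes of the bacterial-type RNA polymerase did not share one pattern. rpoB, which encodes the beta subunit, had 0.625% and 2.05% of the protein-coding reads in WT, against 4.14% and 5.39% in the overexpressor, from 2378, 612, 367 and 535 reads. Its neighbour rpoC1, which encodes another subunit and is transcribed from the same operon, had 0.469% and 0.501% in WT and 0.496% and 0.534% in the overexpressor. The third gene of that operon, rpoC2, had 0.589% and 0.464% in WT and 0.428% and 0.272% in the overexpressor. The alpha subunit gene rpoA, in the ribosomal protein cluster, had 0.216% and 0.134% in WT and 0.146% and 0.0907% in the overexpressor. Along the operon, the first gene was thus above both WT libraries, the middle one overlapped and the last was below both. For rpoC2 this rested on 38 and 27 reads in the overexpressor. The exact 95% interval of its share in overexpressor replicate 1, 0.303 to 0.587%, contains its share in WT replicate 2. Between the WT replicates alone the share of rpoB differed by more than its counting error, with exact 95% intervals of 0.600 to 0.651% and 1.89 to 2.21%. Its log2 fold change of 1.71 ± 0.57 (SE) did not pass in edgeR (adjusted p = 0.175). The value for rpoC1 was -0.06 ± 0.14 and that for rpoC2 -0.77 ± 0.24, which did not pass either (edgeR adjusted p = 0.964 and 0.153).

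Ribosomal protein genes were the class with the highest ratio of overexpressor to WT shares, 2.74, and rpl2 held the largest part of it. rpl2 had 0.575% and 1.87% in WT and 5.57% and 6.25% in the overexpressor, with 2189, 561, 494 and 620 reads summed over its copies. The gene of ribosomal protein L16, rpl16, had 0.217% and 0.608% in WT and 1.12% and 1.41% in the overexpressor, from 825, 182, 99 and 140 reads. The genotypes did not overlap for either gene. For rpl2, the ratio of shares was 3.26 between WT replicates 2 and 1, and 3.15 between the overexpressor mean and WT replicate 2. For rpl16 these ratios were 2.80 and 2.08. The large-subunit genes rpl22 and rpl14 had a smaller share in the second WT library than in the first: rpl22 had 0.211% and 0.164% and rpl14 0.197% and 0.170%, against 0.383% and 0.534% and against 0.327% and 0.524% in the overexpressor. The log2 fold changes were 1.11 ± 0.20 for rpl22 (edgeR adjusted p = 0.0731) and 1.04 ± 0.22 for rpl14 (edgeR adjusted p = 0.0955). rps7 had 0.262% and 0.454% in WT and 0.631% and 0.756% in the overexpressor.

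**Figure D5:**
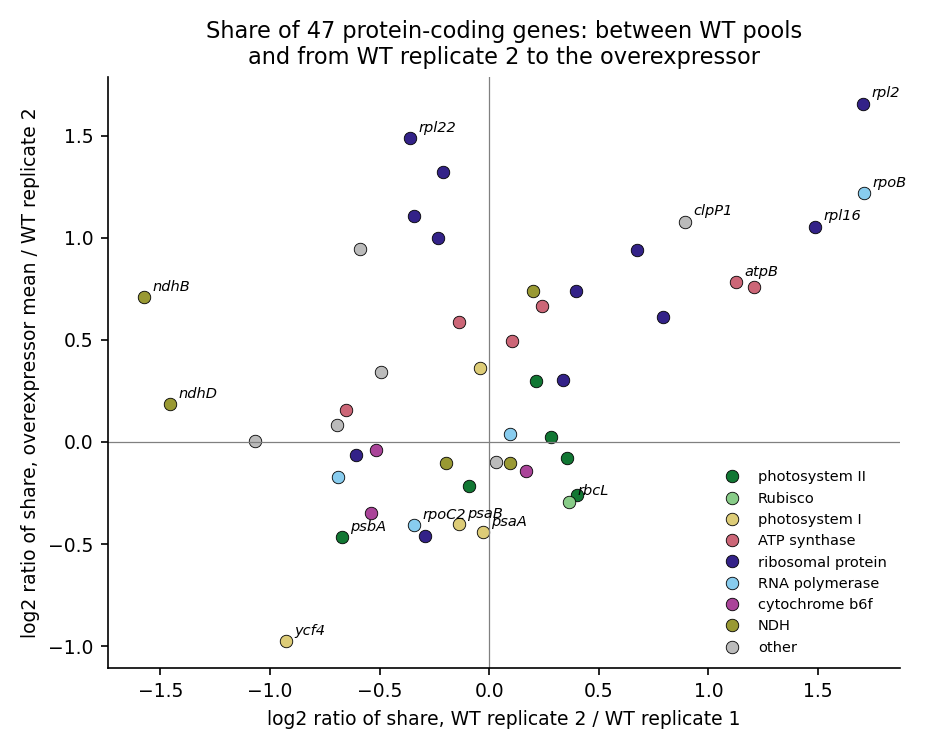
Each point is 1 of the 47 protein-coding genes above the share minimum, with the log2 ratio of its share in WT replicate 2 to that in WT replicate 1 on the horizontal axis and the log2 ratio of the overexpressor mean to WT replicate 2 on the vertical axis, coloured by class. rpoB, rpl2 and rpl16 lie to the right and high, while rpl22 lies high and left of 0; both axes use WT replicate 2, so no slope is read from the points.

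Among the remaining genes, clpP1, which encodes a subunit of the Clp protease, had 0.329% and 0.612% in WT and 0.992% and 1.59% in the overexpressor. Its log2 fold change was 1.38 ± 0.38 (SE, edgeR adjusted p = 0.138). The intron maturase gene matK had 0.756% and 0.361% in WT and 0.372% and 0.353% in the overexpressor, so that WT replicate 1 alone stood apart. accD, which encodes a subunit of acetyl-CoA carboxylase, had 0.144% and 0.147% in WT and 0.124% and 0.151% in the overexpressor, and ycf2, which encodes a protein of the import motor, 0.747% and 0.461% against 0.462% and 0.514%. ycf1, a component of the protein import machinery, had 0.268% and 0.190% in WT and 0.282% and 0.202% in the overexpressor, counting its full and its partial copy. Of the NDH complex, which carries electrons around photosystem I, ndhB had 0.646% and 0.217% in WT and 0.327% and 0.383% in the overexpressor, and ndhD 0.358% and 0.130% against 0.135% and 0.161%. The genotypes overlapped for accD, ycf1, ycf2, ndhB and ndhD.

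Without WT replicate 1, the edgeR test scaled within the chloroplast set called 5 chloroplast genes higher, against 1.21% of all genes, and 1 lower, against 0.677%. Beside the 4 ribosomal RNAs these were rpl2, higher with a log2 fold change of 1.44 (adjusted p = 0.0118), and psaA, lower with -0.66 (adjusted p = 0.0494). With copies counted singly, psaA had an edgeR adjusted p of 0.0528 without that library. In this fit the only WT library is taken to vary like the overexpressor libraries. Without WT replicate 2 instead, and with copies counted singly, edgeR called 33 of 88 fitted chloroplast loci, against 10.5% of all genes.

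On the scale of all genes, chloroplast genes were lower in the overexpressor, by amounts that rested on WT replicate 1. The median log2 fold change of the 61 protein-coding loci that could be fitted was -5.34, against -0.01 for all genes, and 60 of the 61 were negative. edgeR called 0 of 68 chloroplast loci, against 0.149% of all genes. At an unadjusted p under 0.05, edgeR had 63 of the 68 loci, against 21.7% of all genes, and DESeq2 called 32, against 6.24% of all genes. The share of the library was below both WT libraries in both overexpressor libraries for 62 of 68 loci, against 13.5% of all genes, and above for 0, against 25.5%. Among the 47 protein-coding genes above the share minimum, this held for 45.

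Without WT replicate 1 the median was -1.33, and with limma-voom on all 4 libraries -3.25. In the edgeR fit without that library, with copies summed, edgeR called 7 chloroplast genes lower, against 0.746% of all genes: psbA, psbB, psbC, psbD, psaA, psaB and rbcL. Leaving out WT replicate 2 instead made edgeR call 85 of 88 fitted chloroplast loci, against 11.1% of all genes, and scaling by library size alone, with all 4 libraries, 64 of 68, against 4.15%.

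Per unit of length, psbA and rbcL led in every library. Of the length-scaled abundance (TPM) of chloroplast protein-coding genes, psbA made up 29.8% and 19.1% in WT and 13.3% and 11.7% in the overexpressor. rbcL made up 17.2% and 22.6% in WT and 18.2% and 15.1% in the overexpressor, so psbA was the first gene in WT replicate 1 and rbcL in the other 3 libraries. rpl2 stood at 0.723% and 2.41% in WT and at 6.53% and 7.10% in the overexpressor, next after rbcL and psbA in both overexpressor libraries. psbC stood at 3.71% and 4.61% in WT and 4.38% and 4.06% in the overexpressor, and rpl16 at 0.726% and 2.06% against 3.46% and 4.24%.

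Short genes were nearly absent. Of 14 protein-coding genes under 150 bases, 2 had a read in every library (psaJ and the first exon of rps12), 0 had 10 reads in every library, and the highest count was 125 (psbN, WT replicate 1). Of the 66 longer genes, 58 had a read in every library. A count of 3 reads was taken as the limit that a count of 0 allows, which is a one-sided 95% limit. It corresponds to 0.000789% and 0.0100% of the chloroplast protein-coding reads in the WT replicates, and to 0.0338% and 0.0302% in those of the overexpressor. The 3 genes with 0 reads in all libraries were psbM, psbT and petG, small subunits of photosystem II and of the cytochrome b6f complex.

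Transfer RNAs gave 150 reads in WT replicate 1 and 9.33, 2 and 4 in the other libraries, too few for any comparison. Those with the most reads were ATCG00400, a leucine transfer RNA, with 46, 0, 0 and 1 reads, the leucine transfer RNA of the inverted repeat, ATCG00880, and ATCG00290, a serine transfer RNA, with 13, 3, 0 and 0. No transfer RNA locus passed the low-count filter on all 4 libraries. At this depth their absence from a library cannot be told apart from a low level.

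The base composition of the genes was also recorded, from RefSeq for 43 of the 47 genes. Ribosomal protein genes had a median of 35.0% adenine, from 31.4% to 39.7% over 11 genes. Photosystem II genes had 23.8%, from 22.0% to 27.0% over 6 genes. Across the 43 genes, Spearman's rho of percent adenine with the ratio of the overexpressor mean share to that of WT replicate 2 was 0.48, and 0.33 with the ratio to WT replicate 1. Genes of an operon share transcripts and are not independent points, so these values are a description.

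The nuclear genes that transcribe and process chloroplast RNA were read from the test on all genes. Of 21 genes of plastid transcription, edgeR called 0, against 0.149% of all genes, with 9 fold changes positive and 12 negative and a median log2 fold change of -0.09. At an unadjusted p under 0.05, edgeR had 8 of the 21, against 21.7% of all genes. SIG5, a sigma factor known for responses to light and stress, had 27.0 and 40.9 CPM in WT and 55.7 and 81.6 in the overexpressor. Its log2 fold change was 1.01 and did not pass (edgeR adjusted p = 0.150), while DESeq2 called it. SIG4, another sigma factor, had 30.1 and 32.8 CPM in WT and 40.9 and 43.4 in the overexpressor (log2 fold change 0.42, edgeR adjusted p = 0.129). The genotypes did not overlap for either gene. PAP12, an associated protein of the bacterial-type polymerase, and the sigma factor SIG3 had log2 fold changes of 0.31 and 0.29. Of 16 genes of plastid RNA processing and decay, edgeR called 0, with 0 at an unadjusted p under 0.05 and a median log2 fold change of 0.01. The 4 with the smallest p were HCF152 and HCF107, which protect the ends of particular chloroplast transcripts, and the RNA-binding proteins CSP41A and CSP41B.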

How the data were processed

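For each library the authors deposited estimated counts and TPM per gene, with lengths, per the file headers. The deposited TPM are scaled by effective length. No quantifier, build or annotation is named in the sources used here, and among tools the submitters' processing notes list DESeq2. Without a named build, no coordinates or sequences are printed. Names of chloroplast loci follow the TAIR nomenclature, and 120 of 133 loci had a RefSeq gene (TAIR10.1) of that name and the same spliced length.

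Rounded estimated counts went into edgeR 4.0.16 under R 4.3.3, with filterByExpr (minimum count 10, total 15), TMM, quasi-likelihood test, Benjamini-Hochberg adjustment over the 19474 genes kept, threshold 0.05. A second fit scaled chloroplast genes by TMM over the chloroplast protein-coding genes, and nuclear and mitochondrial genes by their own. It was repeated with inverted-repeat copies summed. The count of ribosomal RNAs in that fit, and its own alternatives, were added after seeing the data. A fold change is the overexpressor over WT, and its SE is the unshrunk coefficient over the square root of F. Intervals are exact binomial (95%) and, like the limit of 3 reads, cover counting error only. The edgeR fits were also run on simulated counts in which 200 genes, drawn from the whole gene set, were changed. Chloroplast genes were not examined separately there, so that run does not check their calls.

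The members, gene lists and the rule for named genes were chosen with earlier results of these data known. That rule takes the ribosomal RNAs, the 6 largest shares, 15 genes in every case, the 5 highest and 5 lowest fold changes, loci past the threshold, the 3 transfer RNAs with the most reads and up to 4 genes per nuclear list by smallest p. Other genes of a class (psbB, psbE, psbH, psaC, ycf4, petA, petD, atpA, atpE, atpF, atpH, atpI, rpoA, rpoC1, rpl2, rpl14, rpl22) were named after their values were seen. Over chloroplast protein-coding genes, the chi-square between replicates, divided by its degrees of freedom, was 69.6 in WT and 2.83 in the overexpressor, above sampling noise in both. Alternatives were DESeq2 1.42.0, limma-voom and limma-trend (limma 3.58.1) on log2(TPM + 1), RLE or library-size scaling, other filters, the replicate block and each library left out in turn. With 2 libraries per genotype, p-values measure the spread between these libraries only.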

Additional observations from a re-analysis of the deposited data

How the results depend on the processing

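Without the chloroplast scale, the count of chloroplast loci past the threshold (0) was 32 with DESeq2 (6.24% of all genes called), 64 with library size only (4.15%), 1 with limma-trend (1.41%) and 7 with the replicate block (2%), and ranged from 0 to 85 with each library left out (85 without WT replicate 2, 11.1%). Within the chloroplast scale (2) it was 9 with DESeq2 (5.97%), 1 with limma-voom (0.365%), 10 without a low-count filter (3.31%), 4 with a filter of 1 CPM in 2 libraries (1.02%), 10 with the replicate block (3%), 7, all lower, when scaled by all chloroplast reads (0.883%) and 4 with copies summed (0.889%), and ranged from 0 to 33 with each library left out (33 without WT replicate 2, 10.5%). Genes of plastid transcription past the threshold (0) numbered 1 with DESeq2 and 1 with the replicate block, and 0 to 3 with each library left out, the 3 without WT replicate 2. The 4 called ribosomal RNAs (copies summed) became 0 when scaled by all chloroplast reads, and ranged from 0 to 4 with each library left out. The median log2 fold change of protein-coding loci ranged from -6.44 to -1.33 with each library left out. All genes called numbered 29 on the scale of all genes and 152 within compartments. Over all genes tested, the replicate difference in WT and that in the overexpressor had a correlation of 0.058. With a single difference per genotype, this cannot decide whether same-numbered libraries were paired.

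Signs turned for some genes within the chloroplast scale (log2 fold changes). For rbcL the values ranged from -0.50 to 0.10 with each library left out. For psbC, at 0.00, they ranged from -0.18 to 0.34 with each library left out, and were -0.0050 with limma-voom, -0.061 with the 1 CPM filter and -0.94 when scaled by all chloroplast reads. With copies summed and each library left out, ndhB ranged from -0.91 to 0.49 and ycf1 from -0.47 to 0.29. Scaled by summed protein-coding reads, ycf1 gave 0.0022, and scaled by all chloroplast reads, rps7 gave -0.072. The cause was not tested. Of 552 values for 46 single-gene results under alternatives, 451 kept direction and side of the threshold. Transfer RNAs and genes under 150 bases are limited by depth.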
